A study of Mus musculus with 3530 samples.

Results

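The comparison set neurons of Context-Only mice against neurons of Homecage mice, in the medial prefrontal cortex (mPFC) of the mouse. Its members were all cells whose label ended in Context-Only or in Homecage, whatever sort gate the cell came from, and they numbered 1197 of the 3530 cells in the series. The Context-Only group held 762 cells from 4 mice, numbered 2 to 5, which gave 27.95%, 36.4%, 21.9% and 13.8% of them in that order. The Homecage group held 435 cells, of which mice 2 to 5 gave 42.99%, 22.1%, 3.91% (17 cells) and 30.8%. A further Homecage mouse, number 1, gave 1 cell and entered no sum.

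All mice of both groups carried TRAP2 and Ai14. TRAP2 places a recombinase that tamoxifen activates at the Fos gene, and Ai14 makes the red protein tdTomato once that recombinase has acted, so a cell that expressed Fos while tamoxifen was present stays marked. The series is described as contextual fear conditioning, with Fear-Recall and Fear-Only mice beside the 2 groups compared here. The labels used here give the group names but no schedule of training, tamoxifen or recall, no age, and no statement of what mice with the same number have in common. Tissue was digested with papain, and each cell was made into its own Smart-seq2 library, a full-length method that reads each cell deeply. A sort gate, pos or neg, was named for mice 2 to 4 only. Context-Only mice 2, 3 and 4 gave 68, 58 and 55 neg cells, and the pos gate gave the other 68.1%, 79.1% and 67.1% of their cells. Homecage mouse 2 gave 85 pos and 102 neg cells, the 96 cells of mouse 3 carried both words, and all 17 cells of mouse 4 were neg.

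The mPFC helps to store and retrieve fear memories over long times. Its principal cells are excitatory neurons, which load glutamate into vesicles with Slc17a7 and carry the transcription factors Neurod2 and Neurod6. Its local inhibitory neurons make GABA with Gad1 and Gad2. When a neuron fires strongly, immediate early genes such as Fos, Arc, Egr1 and Npas4 are transcribed within minutes, and many of their proteins are transcription factors that switch on a later wave of genes, Bdnf among them. A new place is itself known to engage such genes in cortex, and animals kept in their home cage are the usual baseline in work of this kind.

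A cell was called excitatory when its summed Slc17a7, Neurod2 and Neurod6 counts, scaled to the size of its library (CPM), exceeded those of Gad1 and Gad2. That gave 745 excitatory cells, 484 of them Context-Only, and 452 other cells, 278 of them Context-Only. Of the other cells 441 had more Gad1 and Gad2 and 11 had no read of any of the 5 genes. Markers that the class rule did not use matched these names. Slc32a1, the vesicular GABA transporter, was read in 63.5% of the other cells and 0.268% of the excitatory cells, and Vip, a peptide of one interneuron class, was read in 68.6% of the other cells. Defining markers of other cell types were rare: Gfap of astrocytes was read in 0.671% of excitatory and 0.885% of other cells, Cx3cr1 of microglia in 0.805% and 0.442%, and Cldn5 of endothelium in 0 of 745 and 0.664%. A cell held between 100176 and 3322153 reads, with a median of 930041, and a median of 6138 genes. The summed reads of a mouse ran from 20281553 in Homecage 4, the mouse of 17 cells, to 241836838 in Context-Only 2. The median number of genes per cell was 6165 ± 1276 (SD, n = 4) in Context-Only mice and 5899 ± 833 (SD, n = 4) in Homecage mice, a difference of 266.5 (exact permutation test over mice, two-sided, p = 0.771). Reads on all genes whose symbol starts with mt- made up 2.26% ± 0.328 against 2.74% ± 0.259 (exact permutation test, p = 0.0857). That set is wider than the 13 genes of the mitochondrial genome listed further on.

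Excitatory cells were 62.4%, 60.6%, 73.7% and 57.1% of the Context-Only mice 2 to 5 and 62.03%, 47.9%, 70.6% and 64.2% of the Homecage mice 2 to 5. The groups overlapped, and the means were 63.5% ± 7.14 and 61.2% ± 9.56 (SD, n = 4 each), a difference of 2.29 percentage points (exact permutation test, two-sided, p = 0.800, where the smallest p that 4 mice against 4 can give is 0.0286). The sign of that difference rested on single mice, since it was -1.10 without Context-Only 4 and -2.13 without Homecage 3. These shares also depend on how many cells were taken from each gate: in Context-Only 2, 77.9% of neg cells and 55.2% of pos cells were excitatory.

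At least 1 read of the tdTomato reporter was found in 26.3%, 71.5%, 52.7% and 28.6% of the cells of Context-Only mice 2 to 5. In Homecage mice 2 to 5 the shares were 15.5%, 51.0%, 0% (0 of 17, exact upper limit 19.5%) and 38.8%. The means were 44.8% ± 21.4 and 26.3% ± 22.9 (SD, n = 4 each), a difference of 18.4 percentage points (exact permutation test, p = 0.257). With each cell thinned to 100000 reads the difference was 13.6 points. The gate a cell came from went with this share: within Context-Only 2, 34.5% of cells from the pos gate and 8.82% of those from the neg gate held a reporter read, within Context-Only 3, 87.2% and 12.1%, within Context-Only 4, 75.0% and 7.27%, and within Homecage 2, 23.5% and 8.82%. In neg cells the shares were thus 7.27% to 12.1% in 3 Context-Only mice and 8.82% and 0% in Homecage 2 and 4, and they overlapped. The pos gate gave most cells of Context-Only 2, 3 and 4, and among Homecage mice it was named alone for mouse 2 only.

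**Figure D1:**
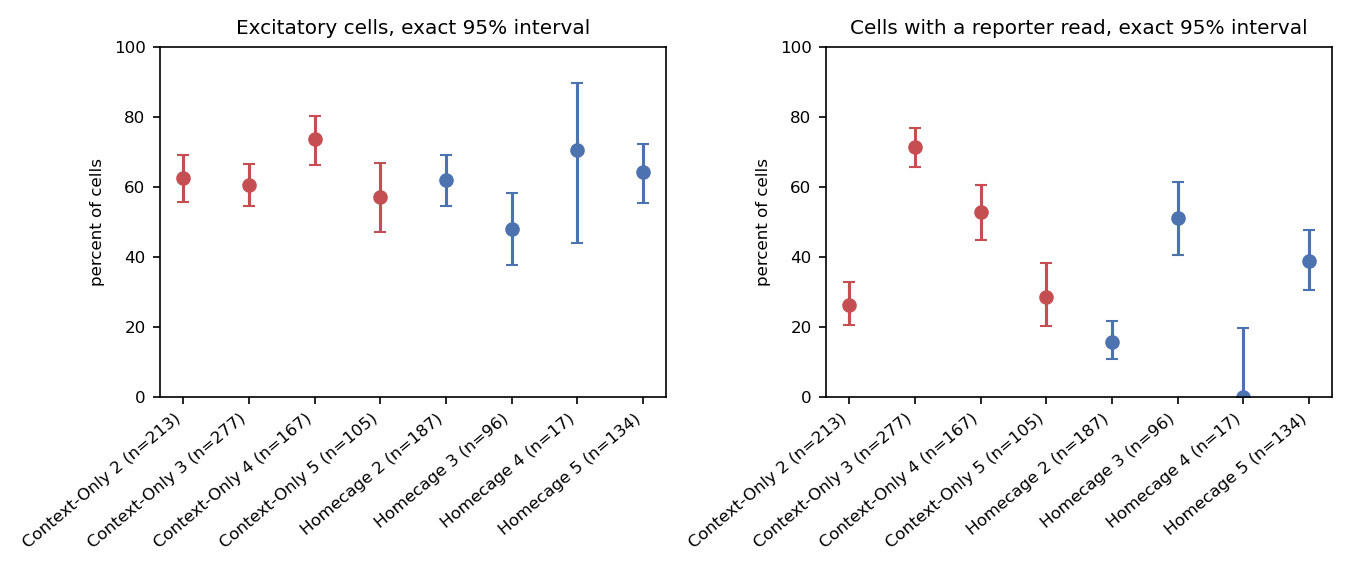
Percent of cells called excitatory (left) and percent with at least 1 tdTomato read (right), each point 1 mouse with its exact 95% binomial interval, which covers counting error only. Excitatory shares run from 57.1% to 73.7% in Context-Only and from 47.9% to 70.6% in Homecage mice, and reporter shares overlap between the groups, with Homecage 4 at 0%.

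No gene differed between Context-Only and Homecage mice past an adjusted p of 0.05 when all cells of a mouse were summed. Of 19562 genes tested with edgeR's quasi-likelihood test, 0 were higher (0%) and 0 lower (0%), and the smallest adjusted p was 1. At an unadjusted p under 0.05 there were 808 genes (4.13%), 518 higher in Context-Only (2.65%) and 290 lower (1.48%). With mouse number as a block in the fit, 1182 genes (6.04%) did so and 0 passed. All 4 Context-Only mice lay above all 4 Homecage mice for 200 genes (1.02%) and below them for 79 (0.404%). The median log2 fold change, Context-Only over Homecage, was 0.03, and 52.5% of genes lay above 0. limma's voom with sample weights called 0 of the same genes (783 at an unadjusted p under 0.05), while DESeq2 called 35 higher (0.181%) and 13 lower (0.0671%) of 19365. None of those 48 had a mean log2 CPM of 5 or more, a level that 5167 of the 19562 genes tested reached.

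The size of difference that this comparison could resolve was limited, even with the spread estimated over the 18 sums of all 4 conditions. Among the 5167 genes with a mean log2 CPM of 5 or more, the 95% interval of the log2 fold change reached a median of 0.64 to either side, a factor of 1.56. For 1 gene in 10 it reached 0.95 or more. Only 3 of the 5167 had a fitted log2 fold change beyond 1 in either direction. Because counts are summed over cells of several kinds, fewer cells of a type and less RNA per cell cannot be told apart in what follows.

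The genes of smallest p at that expression level are described next, and none of them passed the test. P4ha1 makes a subunit of the enzyme that hydroxylates prolines in collagen (chromosome 10, 59323296 to 59373304, plus strand, GRCm38). It stood at 46.4, 64.5, 88.7 and 77.0 CPM in Context-Only mice 2 to 5 and at 33.4, 27.1, 45.5 and 56.0 CPM in Homecage mice 2 to 5, so that only Context-Only 2 fell within the Homecage range. Its log2 fold change was 0.77 (SE 0.25, unadjusted p = 0.00679). Odc1, the first enzyme of polyamine synthesis (chromosome 12, 17544794 to 17551505, plus strand), stood at 40.5, 49.5, 58.3 and 57.8 CPM against 33.3, 24.7, 25.8 and 39.8 CPM. Its groups did not overlap (0.74, SE 0.26). The groups of Prmt5, which methylates arginines on histones and splicing proteins, did not overlap either, with 50.2, 54.7, 76.02 and 87.3 CPM against 46.998, 42.3, 22.1 and 39.2 CPM (0.83, SE 0.29). Fam20b, a xylose kinase of proteoglycan synthesis, had 27.7, 37.7, 53.5 and 70.1 CPM against 29.1, 23.4, 15.8 and 32.0 CPM. Context-Only 2 alone lay within the Homecage range there.

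On the lower side the 4 genes of smallest p were Pigu, Nrxn3, Ptpn11 and Tet2. Nrxn3 encodes a neurexin, a presynaptic adhesion protein that binds neuroligins across the synapse, and it spans a large part of chromosome 12 (88722876 to 90334935, plus strand). Its level was 341, 348, 242 and 378 CPM in Context-Only mice and 461, 577, 766 and 395 CPM in Homecage mice. Those groups did not overlap, and the log2 fold change was -0.75 (SE 0.27, unadjusted p = 0.0125). Tet2 oxidises methylated cytosine and so starts its removal (chromosome 3, 133463679 to 133545139, minus strand). It stood at 26.8, 33.1, 24.9 and 25.0 CPM against 30.3, 49.3, 43.3 and 44.9 CPM (log2 fold change -0.61, SE 0.24), lower in the Context-Only mouse of all 4 same-numbered pairs. Ptpn11, a phosphatase of receptor tyrosine kinase signalling, had 45.1, 62.6, 50.3 and 44.98 CPM against 58.7, 79.7, 101 and 79.8 CPM. Pigu, a part of the complex that attaches lipid anchors to proteins, had 22.6, 45.1, 25.6 and 26.3 CPM against 46.9, 45.9, 61.8 and 42.7 CPM, with Context-Only 3 alone inside the Homecage range.

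**Figure D2:**
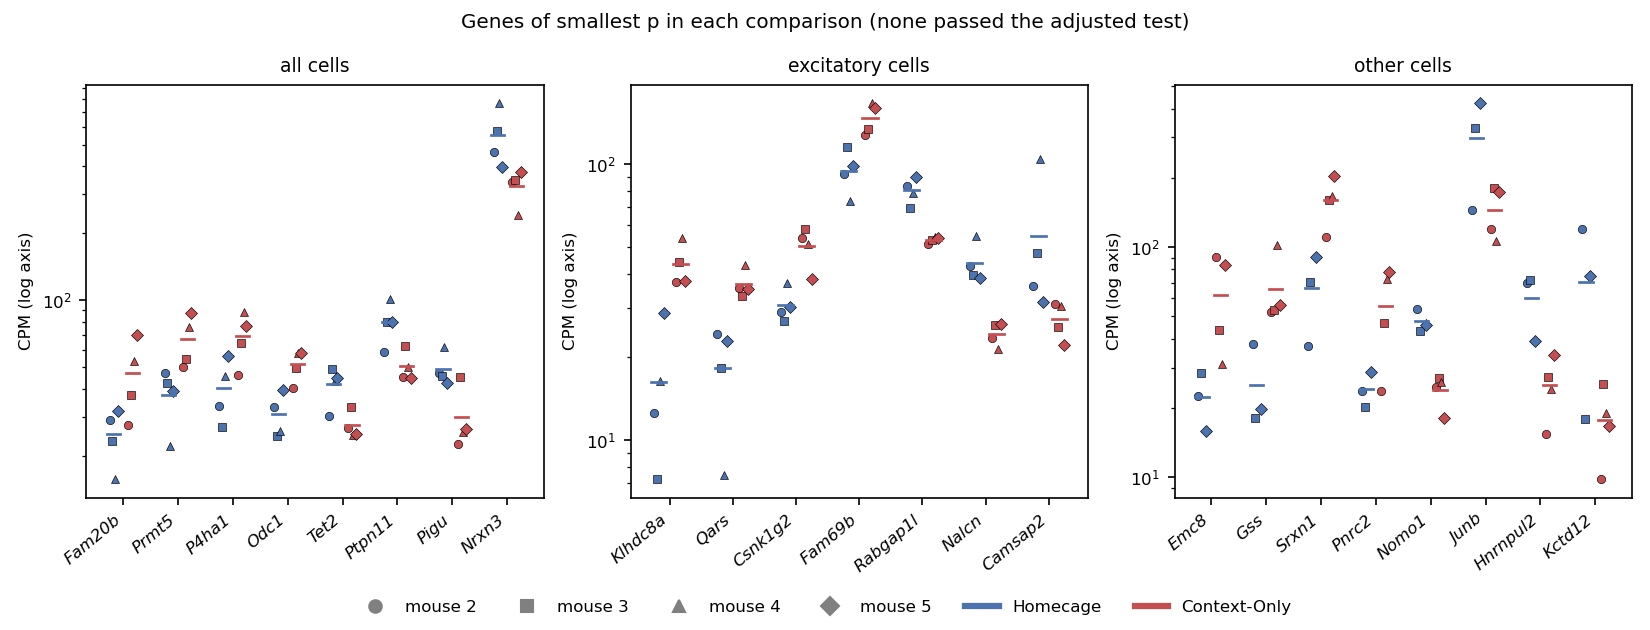
Summed expression (CPM, log axis) by mouse of genes of smallest p and a mean log2 CPM of 5 or more in each comparison: 8 in all cells, 7 in excitatory cells and 8 in other cells. Points are mice and lines are group means; none of these genes passed an adjusted p of 0.05, and since they were chosen by p the distance between their groups is a description only.

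Immediate early genes were present in both groups and did not separate them. None of the 30 members tested passed, 11 lay above 0 and 19 below, and the median log2 fold change was -0.15, beside 0.03 over all genes. Without Homecage 4, the mouse of 17 cells, the median was -0.34 and 24 lay below 0. At an unadjusted p under 0.05 there were 0 higher and 1 lower, where 2.65% and 1.48% of all genes were. The summed level of the list ran from 2427 to 3579 CPM in Context-Only mice and from 2289 to 5399 CPM in Homecage mice. Fos, the gene whose promoter drives TRAP2 (chromosome 12, 85473890 to 85477273, plus strand), stood at 314, 368, 312 and 249 CPM in Context-Only mice and 378, 510, 174.1 and 496 CPM in Homecage mice. Homecage 4 was lowest and the other 3 Homecage mice were highest (log2 fold change -0.33, 95% interval -1.11 to 0.46). Egr1, a zinc finger factor with steady cortical expression, had 573, 638, 469 and 857 CPM against 450, 506, 499 and 999.6 CPM, and its log2 fold change of 0.05 (SE 0.30) turned to -0.13 without Context-Only 5.

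Arc, Npas4 and Junb of this list were lower in Context-Only in each same-numbered pair without passing the test. The share of all genes that did so is not given, so this is a description only. Arc, whose protein acts at synapses to remove AMPA receptors, had 168.5, 155.7, 192.6 and 230 CPM against 209, 191, 234.9 and 364 CPM (log2 fold change -0.42, SE 0.39). The groups overlapped. Npas4, a factor that answers calcium entry and shapes inhibitory synapses, had 45.04, 19.5, 23.3 and 23.1 CPM against 57.8, 27.3, 58.6 and 25.2 CPM (-0.61, SE 0.44). Junb, a partner of Fos in the AP-1 dimer (chromosome 8, 84974484 to 84978718, minus strand), had 203.6, 223.98, 106 and 249 CPM against 270.1, 295, 167.02 and 473 CPM (-0.62, SE 0.35, unadjusted p = 0.0894). Btg2, an antiproliferative gene of the early response, had 61.8, 67.6, 48.3 and 86.4 CPM against 196.3, 90.9, 80.6 and 57.1 CPM. In that gene the mice numbered 5 went the other way.

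Nr4a1 rested on 1 mouse. This orphan nuclear receptor (chromosome 15, 101254269 to 101274795, plus strand) had 381, 270.7, 192.6 and 351 CPM in Context-Only mice and 437, 137, 130 and 1527 CPM in Homecage mice. The log2 fold change was -0.90 (SE 0.64), -0.48 with mouse number as a block, and 0.35 without Homecage 5.

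**Figure D3:**
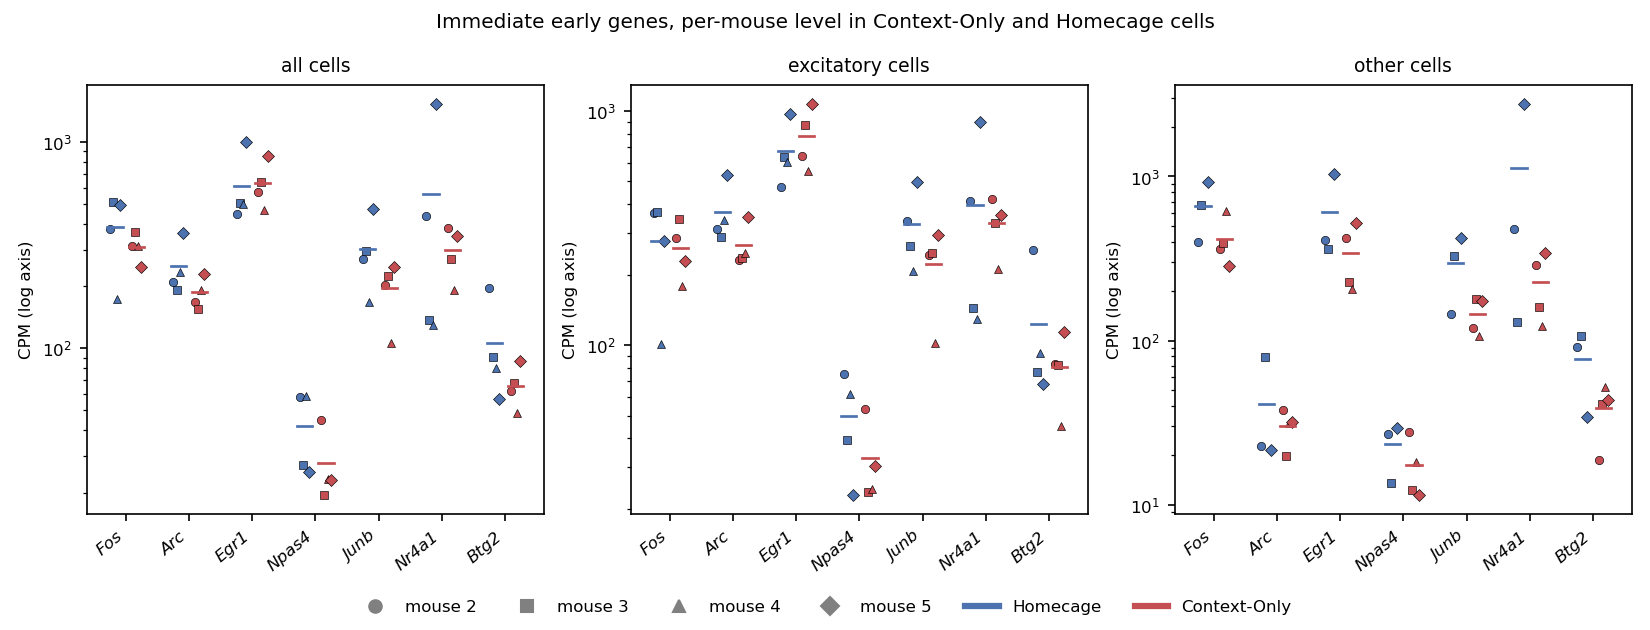
Summed expression (CPM, log axis) of 7 immediate early genes by mouse in all, excitatory and other cells; each point is a mouse, its shape gives the mouse number, and lines are group means. The groups overlap for each of the 7 genes in all cells, and the highest Nr4a1 point in all cells is Homecage 5 at 1527 CPM.

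None of 20 genes of the later activity response passed the test. The median was 0.23, and 0.04 without Homecage 4. Of the 20, 12 lay above 0, where 52.5% of all genes did, and 2 were higher at an unadjusted p under 0.05, where 2.65% of all genes were. Rgs4, which shortens G protein signalling, had 482, 667, 936 and 900 CPM in Context-Only mice and 413, 233, 284.8 and 781 CPM in Homecage mice. It was higher in the Context-Only mouse of 4 of 4 pairs (log2 fold change 0.80, SE 0.38, unadjusted p = 0.0485), and the groups overlapped. Bdnf, a growth factor of synapses released from excitatory neurons, had 149, 204.7, 123.4 and 139 CPM against 65.3, 145.8, 36.3 and 97.5 CPM, also higher in 4 of 4 pairs (0.84, SE 0.49, unadjusted p = 0.101). A Bdnf read was found in 38.8% of Context-Only and 24.7% of Homecage cells. Such shares of a gene, here and below, pool the cells of a group across mice, so mice with more cells weigh more. They are also taken at full depth, with no thinning of cells to equal reads. The median reads per cell of a mouse averaged 1106020 in Context-Only and 921583 in Homecage mice. Gpr3, a receptor that is active without a ligand, had 6.91, 13.8, 9.43 and 10.6 CPM against 2.87, 4.58, 0.321 and 12.2 CPM (1.02, SE 0.64), where Homecage 4 was lowest and Homecage 5 lay inside the Context-Only range.

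Corticosterone released in stress enters the brain and acts through the glucocorticoid receptor, while the circadian clock runs in most cells through a loop of activators and repressors. None of 15 genes of the glucocorticoid list passed, with a median of -0.09 (-0.03 without Homecage 4) and 6 above 0. Nr3c1, the glucocorticoid receptor, had 75.1, 101, 82.01 and 95.3 CPM against 105, 102, 139 and 77.3 CPM (log2 fold change -0.26, SE 0.26). Its target Fkbp5 had 7.09, 6.76, 9.81 and 7.47 CPM against 6.08, 5.83, 20.4 and 22.9 CPM: Homecage 4 and 5 lay above all other mice. Sgk1, a kinase that the same receptor induces, had 36.7, 40.3, 49.5 and 54.5 CPM against 54.3, 51.8, 34.2 and 49.9 CPM. Nfkbia, an inhibitor of NF-kB that the receptor also induces, had 99.9, 46.97, 28.1 and 54.3 CPM against 51.0, 58.0, 28.8 and 34.2 CPM, and its log2 fold change of 0.41 became -0.01 without Context-Only 2.

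None of 16 clock genes passed, with a median of -0.09 and 6 above 0, or 0.12 and 10 without Homecage 4. Per1, a repressor of the clock that also answers activity and glucocorticoids, was highest in the mice numbered 5 of both groups: 54.9, 73.9, 88.7 and 198 CPM against 35.97, 35.4, 92.3 and 243.6 CPM. Nr1d1, a clock repressor, had 52.2, 88.2, 150 and 166.2 CPM against 48.03, 55.4, 55.01 and 129.7 CPM. It was higher in Context-Only in 4 of 4 pairs (log2 fold change 0.66, SE 0.41). Its relative Nr1d2 had 10.9, 12.7, 20.8 and 9.49 CPM against 11.3, 9.60, 70.01 and 15.2 CPM, and its value of -0.97 became 0.17 without Homecage 4.

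None of 19 neuropeptide genes passed in all cells (median -0.12, 7 above 0, or -0.39 without Homecage 4). Penk, the precursor of the enkephalins, had 811, 806, 538 and 539 CPM in Context-Only mice and 337, 764, 278 and 286 CPM in Homecage mice (log2 fold change 0.69, SE 0.45). Only Homecage 3 lay within the Context-Only range. Npy, a peptide of inhibitory cells, had 1052, 431, 347 and 235.2 CPM against 1126, 684, 1495 and 417 CPM, lower in Context-Only in 4 of 4 pairs (-0.85, SE 0.61). Pdyn, the dynorphin precursor, had 1.25, 6.38, 5.26 and 31.1 CPM against 7.33, 0.342, 0.275 and 0.305 CPM, and 1 cell carried 53.3% of its Context-Only reads. Adcyap1, which encodes PACAP, had 12.4, 20.3, 21.03 and 10.1 CPM against 12.4, 1.82, 7.34 and 11.2 CPM.

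Synaptic genes gave small values. Of 40 genes of vesicle fusion, 27 lay above 0 with a median of 0.13, and of 37 glutamate receptor and postsynaptic genes 19 lay above 0 with a median of 0.02, or 0.11 without Homecage 4. None of either list passed. Rims2, an active zone scaffold that docks vesicles beside calcium channels, had 67.3, 46.1, 56.5 and 36.3 CPM against 39.1, 35.7, 23.9 and 32.4 CPM and was higher in 4 of 4 pairs (log2 fold change 0.65, SE 0.25, unadjusted p = 0.0154). Cplx2, a complexin that clamps vesicles before release, had 407, 285.4, 267.2 and 250 CPM against 315, 422, 710 and 394 CPM (-0.61, SE 0.32). Stx1a, the syntaxin of the release machinery, had 247.1, 556, 527 and 399 CPM against 289.3, 284.1, 345 and 406 CPM. Grm2, a presynaptic glutamate receptor that limits release, had 14.3, 27.3, 47.6 and 59.6 CPM against 14.5, 9.16, 20.7 and 37.7 CPM (0.86, SE 0.49), with both groups highest in mice 4 and 5. None of 20 genes of GABA signalling passed (median 0.02).

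Among 30 synaptic adhesion genes 11 lay above 0, with a median of -0.12 (-0.06 without Homecage 4), and none passed. Cbln4, a secreted cerebellin that bridges neurexins to their partners, had 16.02, 39.1, 18.04 and 26.4 CPM in Context-Only mice and 12.1, 8.67, 2.84 and 9.47 CPM in Homecage mice. The groups did not overlap, the log2 fold change was 1.58 (SE 0.51, unadjusted p = 0.00613), and a read was found in 20.7% and 10.8% of cells. Of its Homecage reads, 1 cell carried 24.1%. Lrrc4c, a ligand of netrin G1, had a log2 fold change of 0.46 (SE 0.31).

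None of 36 potassium channel genes passed (median 0.09, 23 above 0) and none of 26 sodium, calcium and HCN channel genes (median -0.06, 11 above 0). Without Homecage 4 the medians were 0.24 and 0.13. Cacna1h, a T-type calcium channel, had 5.22, 7.29, 6.66 and 2.58 CPM against 6.18, 10.8, 32.8 and 14.9 CPM, lower in 4 of 4 pairs (log2 fold change -1.57, SE 0.57, unadjusted p = 0.0130). Scn4b, a sodium channel beta subunit, had 7.44, 2.40, 0.891 and 2.44 CPM against 0.789, 0.538, 0 and 1.44 CPM, and 1 cell carried 30.7% of its Context-Only reads. Kcnn2, a calcium-activated potassium channel, had 19.6, 33.7, 29.99 and 14.995 CPM against 41.8, 41.5, 20.1 and 44.2 CPM. Kcnd2, an A-type potassium channel of dendrites, had 37.6, 38.5, 51.4 and 44.1 CPM against 44.4, 47.96, 93.1 and 49.3 CPM (-0.45, SE 0.24). In both of the latter Homecage 4 stood apart from the other Homecage mice.

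Of 34 chromatin and DNA methylation genes, 15 lay above 0 and none passed (median -0.03, or 0.05 without Homecage 4). Besides Tet2, Kdm6a, an X-linked histone demethylase, was lower at an unadjusted p of 0.0492 with 2.98, 5.84, 3.37 and 3.23 CPM against 5.05, 6.86, 11.8 and 5.59 CPM. Hdac4, a histone deacetylase that moves out of the nucleus with activity, had 65.0, 52.2, 69.7 and 45.1 CPM against 41.6, 44.2, 53.4 and 42.1 CPM (log2 fold change 0.36, SE 0.24).

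Genes of cholesterol synthesis lay mostly on the higher side by small amounts. Neurons make sterols for membranes and synapses, and SREBP2, the product of Srebf2, drives the enzymes. Of 23 members 20 lay above 0, where 52.5% of all genes did, with a median of 0.20, and none passed. Without Homecage 4, 16 lay above 0 and the median was 0.12. At an unadjusted p under 0.05, 2 were higher, where 2.65% of all genes were. Stard4, a sterol carrier, had 22.9, 14.97, 18.03 and 30.6 CPM against 9.56, 14.5, 8.48 and 16.3 CPM (log2 fold change 0.82, SE 0.34, unadjusted p = 0.0243). Dhcr7, the last enzyme of the pathway, had 8.04, 11.1, 19.5 and 14.4 CPM against 9.76, 4.90, 8.57 and 5.96 CPM (0.86, SE 0.41). Srebf2 itself had 41.3, 45.2, 56.2 and 65.4 CPM against 29.6, 41.2, 31.7 and 56.9 CPM, higher in 4 of 4 pairs with groups that overlapped (0.38, SE 0.24). Cyp51, a demethylase of the pathway, had 30.9, 47.4, 81.95 and 82.4 CPM against 29.8, 24.02, 25.8 and 80.1 CPM. The summed level of the list nonetheless overlapped, from 1512 to 2196 CPM in Context-Only and from 1025 to 1866 CPM in Homecage mice. In excitatory cells 18 of 23 lay above 0 (median 0.24) and in other cells 8 of 23 (median -0.08).

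Genes of the ribosome and of mitochondrial respiration lay mostly on the lower side by small amounts. Of 81 ribosomal protein genes 14 lay above 0 (median -0.11), of 75 nuclear genes of oxidative phosphorylation 26 (median -0.07), and of 13 genes of the mitochondrial genome 2 (median -0.17). None passed, and with mouse number as a block the medians were -0.24, -0.20 and -0.24. Without Homecage 4 they were -0.23, -0.17 and -0.25. The summed levels differed far more between mice of a group than between groups. Ribosomal protein genes summed to 39524, 18731, 12896 and 12513 CPM in Context-Only mice 2 to 5 and to 30570, 25758, 16893 and 16005 CPM in Homecage mice 2 to 5, so that mice 2 were above and mice 4 and 5 below in both groups. None of 31 proteasome genes passed (median 0.04, 21 above 0, or -0.04 and 10 without Homecage 4), nor of 27 heat shock and chaperone genes (median 0.10, 16 above 0), nor of 19 genes of the unfolded protein response (median 0.00, 10 above 0, or 0.09 and 11 without Homecage 4). None of 7 nuclear long noncoding RNAs passed (median -0.18, 1 above 0, or -0.09 and 3 without Homecage 4). Hspa8, the constitutive Hsp70 chaperone, had 2243, 3991, 4088 and 3263 CPM against 2546, 2609, 2634 and 3289 CPM. Hspa5, the chaperone of the endoplasmic reticulum, had 286.7, 598, 635 and 725 CPM against 343, 289.4, 594 and 478 CPM.

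**Figure D4:**
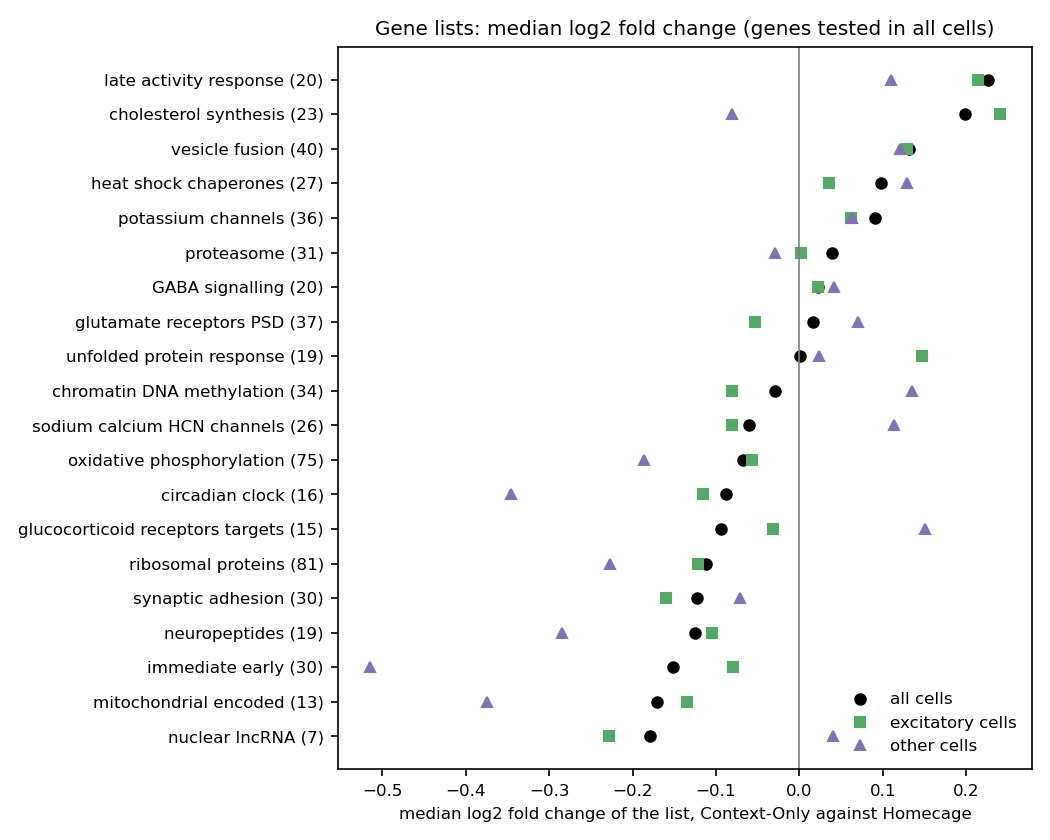
Median log2 fold change (Context-Only over Homecage) of the members of 20 pathway lists in all, excitatory and other cells. None of these lists holds a gene past an adjusted p of 0.05; cholesterol synthesis lies at 0.20 in all cells and immediate early genes at -0.51 in other cells, where Homecage 4 has no sum.

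Markers of neuronal classes are given next for each sum. In all cells Slc17a7 had 57.2, 78.2, 93.3 and 47.1 CPM against 51.1, 59.3, 110 and 59.3 CPM, and Gad1 had 190, 207.2, 506 and 559 CPM against 259, 222, 328 and 609 CPM. The log2 fold changes of Slc17a7, Neurod2, Neurod6, Gad1 and Gad2 were -0.02, -0.07, 0.28, 0.04 and 0.03. Vip had 4741, 9834, 5240 and 5982 CPM against 4314, 10986, 1519 and 7432 CPM, and Sst, the peptide of another interneuron class, had 643, 647, 325 and 170 CPM against 741, 977, 13.7 and 187.2 CPM. Homecage 4 was lowest for both peptides, and its sum held 5 other cells. Rasgrf2, listed as an upper-layer marker, was read in 36.8% of excitatory and 41.6% of other cells, so here it did not set excitatory cells apart. It had 46.6, 28.4, 28.3 and 31.1 CPM against 50.7, 29.0, 155 and 33.4 CPM. Dlx6os1, an RNA of inhibitory neurons, had 46.6, 76.2, 44.2 and 62.1 CPM against 81.02, 61.2, 215.3 and 58.7 CPM. In both, Homecage 4 stood above the rest. Of the 9 upper-layer markers 3 lay above 0 (median -0.21), where 52.5% of all genes did, or 6 without Homecage 4 (median 0.12). Etv1, a deep-layer marker, had 122.9, 110, 155.9 and 141.1 CPM against 96.0, 28.2, 84.2 and 118.7 CPM. The deep-layer list as a whole did not go that way: 5 of its 13 markers lay above 0 and 8 below (median -0.08). In excitatory cells 8 of 13 lay below 0 as well (median -0.21). The summed deep-layer level overlapped, from 840 to 1172 CPM in Context-Only and from 357 to 1196 CPM in Homecage mice.

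Microglial and myelin markers varied between mice. The 10 microglial markers summed to between 18.3 and 53.2 CPM in Context-Only mice and between 13.6 and 133.1 CPM in Homecage mice, with 9 of 10 at a fitted value below 0. Homecage 5 set the upper end: Cx3cr1 stood at 14.6 CPM there and at 0.768 CPM or less in each of the other 7 mice, and 1 cell carried 99.8% of its Homecage reads. P2ry12 stood at 15.2 CPM in Homecage 5 and at 1.01 CPM or less elsewhere. The 10 myelin markers summed to between 135 and 228 CPM in Context-Only and between 37.04 and 324 CPM in Homecage mice. Of these markers 7 lay above 0 and 3 below, where 52.5% of all genes lay above 0, and none passed. In excitatory cells 8 of 8 tested lay above 0 (median 1.76), and in other cells 3 of 8 (median -0.49), where 51.8% and 50% of all genes did. Cnp and Mag, given next, were the 2 whose groups did not overlap in all cells, as 1.02% of all genes did on the higher side. Cnp, a myelin enzyme, had 13.2, 19.5, 22.8 and 13.9 CPM against 6.51, 6.01, 2.11 and 12.7 CPM. Mag, a myelin adhesion protein, had 1.15, 1.99, 1.68 and 0.295 CPM against 0, 0, 0 and 0.0117 CPM, and it was read in 1.44% and 0.230% of cells. The astrocyte markers summed to between 1409 and 1505 CPM against 1044 to 1535 CPM. The part of these cells in the gene values above was not tested.

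Within excitatory cells 0 of 18686 genes were higher (0%) and 0 lower (0%) by edgeR, with a smallest adjusted p of 1. At an unadjusted p under 0.05 there were 866 genes (4.63%), 536 higher (2.87%) and 330 lower (1.77%), and groups did not overlap for 192 higher (1.03%) and 99 lower (0.53%), while 51.8% of genes lay above 0. With mouse number as a block 1094 genes (5.85%) had an unadjusted p under 0.05, and 0 passed. voom called 0 (890 at an unadjusted p under 0.05). DESeq2 called 44 higher (0.238%) and 13 lower (0.0702%) of 18512, of which 2, Nalcn and Rabgap1l, had a mean log2 CPM of 5 or more. For the 5100 genes at that level the median half-width of the 95% interval was 0.65 on the log2 scale.

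The 7 genes described next were among those of smallest p in excitatory cells at a mean log2 CPM of 5 or more, and none of them passed with edgeR. Their groups did not overlap, which follows in part from choosing them by p. Klhdc8a, a kelch repeat protein (chromosome 1, 132298626 to 132307357, plus strand), had 37.3, 44.2, 54.0 and 37.7 CPM in Context-Only mice and 12.5, 7.24, 16.4 and 28.9 CPM in Homecage mice (log2 fold change 1.41, SE 0.37, unadjusted p = 0.00123). Qars, the glutaminyl-tRNA synthetase, had 35.5, 33.3, 43.2 and 35.2 CPM against 24.2, 18.3, 7.45 and 22.9 CPM (1.01, SE 0.32). Csnk1g2, a casein kinase 1 isoform, had 53.9, 58.0, 51.5 and 38.3 CPM against 29.2, 26.95, 36.9 and 30.3 CPM. Fam69b, a kinase-like protein of the secretory pathway, had 127.1, 134.3, 165.97 and 160 CPM against 91.8, 115.1, 73.3 and 98.0 CPM (0.63, SE 0.20).

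Nalcn, the sodium leak channel that helps to set the resting potential of neurons (chromosome 14, 123276634 to 123627144, minus strand), was the lower gene of smallest p in excitatory cells at that expression level. It had 23.3, 26.0, 21.4 and 26.2 CPM in Context-Only and 42.6, 39.5, 54.7 and 38.6 CPM in Homecage mice, all 4 of the former below all 4 of the latter (log2 fold change -0.85, SE 0.23, unadjusted p = 0.00139). DESeq2 put it past its threshold at -0.88, and edgeR did not. Rabgap1l, a regulator of Rab GTPases in endosome traffic, had 51.4, 53.0, 54.3 and 53.8 CPM against 83.1, 69.3, 78.3 and 90.1 CPM (-0.59, SE 0.19; DESeq2 -0.62, past its threshold). Camsap2, which caps the minus ends of microtubules, had 31.2, 25.7, 30.5 and 22.2 CPM against 36.2, 47.6, 104.2 and 31.5 CPM (-1.001, SE 0.34). Its highest mouse, Homecage 4, had 12 excitatory cells.

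No activity gene passed in excitatory cells. Of the 30 immediate early genes 12 lay above 0, and their median was -0.08, or -0.33 without Homecage 4. Fos had 286, 346, 178.5 and 228.9 CPM against 365, 369, 101 and 277.1 CPM (log2 fold change -0.10, SE 0.46), a value whose sign turned when any of Context-Only 4, Homecage 2 or Homecage 3 was left out and which was -0.37 without Homecage 4. Arc had 231.96, 234.7, 248 and 353 CPM against 315, 290.96, 341 and 535 CPM and was lower in 4 of 4 pairs (-0.47, SE 0.47). Npas4 had 53.1, 23.5, 24.4 and 30.3 CPM against 75.1, 39.5, 61.9 and 22.9 CPM. For the late response the median was 0.21, or 0.04 without Homecage 4: Rgs4 had 689, 1018, 1237 and 1424 CPM against 627, 394, 413 and 1158 CPM, and Bdnf had 221.3, 322, 166.7 and 223 CPM against 100.3, 275, 52.6 and 145.95 CPM, each higher in 4 of 4 pairs. A Bdnf read was found in 59.9% of Context-Only and 40.8% of Homecage excitatory cells.

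Among the other cells, nearly all with Gad1 or Gad2 reads, 0 of 17314 genes were higher (0%) and 0 lower (0%) by edgeR, with a smallest adjusted p of 0.906. Homecage 4 had 5 such cells and gave no sum, so 4 mice stood against 3. At an unadjusted p under 0.05 there were 914 genes (5.28%), 583 higher (3.37%) and 331 lower (1.91%), and with mouse number as a block 831 (4.8%). Groups did not overlap for 345 higher genes (1.99%) and 1.4% of genes lower, and 50% of genes lay above 0. voom called 0 (607 at an unadjusted p under 0.05), and DESeq2 called 106 higher (0.63%) and 21 lower (0.125%) of 16834, none with a mean log2 CPM of 5 or more. The median half-width for the 5039 genes at that level was 0.88 on the log2 scale, a factor of 1.84, wider than in excitatory cells.

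The genes of smallest p in the other cells, at a mean log2 CPM of 5 or more, are given next. Gss, the second enzyme of glutathione synthesis, had 52.05, 53.1, 102 and 56.0 CPM in Context-Only mice 2 to 5 and 37.8, 18.2 and 19.8 CPM in Homecage mice 2, 3 and 5 (log2 fold change 1.38, SE 0.43). Srxn1, which reduces oxidised peroxiredoxins, had 111, 161, 166.6 and 204.2 CPM against 37.1, 70.8 and 90.99 CPM (1.28, SE 0.40, unadjusted p = 0.00548). Neither passed, and the groups of both did not overlap. Emc8, a part of the complex that inserts proteins into the endoplasmic reticulum membrane, had 90.5, 43.6, 31.0 and 83.5 CPM against 22.5, 28.3 and 15.8 CPM (1.48, SE 0.45). Pnrc2, a factor of messenger RNA decay, had 23.6, 46.97, 72.9 and 78.0 CPM against 23.7, 20.2 and 28.7 CPM. On the lower side Hnrnpul2, a nuclear RNA-binding protein, had 15.4, 27.2, 24.1 and 34.0 CPM against 70.2, 71.7 and 38.98 CPM, and Nomo1, of an endoplasmic reticulum complex, had 24.8, 26.98, 25.8 and 18.02 CPM against 54.1, 43.3 and 45.8 CPM. Kctd12, an auxiliary subunit of GABA-B receptors, had 9.85, 25.5, 19.1 and 16.7 CPM against 119.4, 17.9 and 75.0 CPM, and 1 cell carried 38.98% of its Homecage reads.

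Of 30 immediate early genes in the other cells, 25 lay below 0 and 5 above, and the median was -0.51 beside 0.00 over all genes. At an unadjusted p under 0.05, 5 were lower and 1 higher, where 1.91% and 3.37% of all genes were, and none passed. Homecage 4 has no sum here, and in excitatory cells without that mouse 21 of the 30 lay below 0, with a median of -0.33. The difference of the list between the classes was not tested. Junb had 120, 180, 106 and 174.4 CPM against 145, 329 and 422 CPM (log2 fold change -1.04, SE 0.36, unadjusted p = 0.0105). Fos had 362, 396, 619 and 284.7 CPM against 399.6, 670 and 927 CPM (-0.68, SE 0.40), Btg2 18.8, 41.3, 51.9 and 43.5 CPM against 91.04, 107 and 34.1 CPM, and Egr1 422, 228, 206.9 and 519 CPM against 409, 363 and 1040 CPM. Nr4a1 had 290, 160, 123.3 and 341 CPM against 479, 129 and 2764 CPM (-2.30, SE 0.86). Homecage 5 was highest for Junb, Fos, Egr1 and Nr4a1, and Homecage 3 was lower than 3 of the Context-Only mice for Nr4a1.

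Penk went opposite ways in value in the 2 classes. In the other cells it had 2125, 2038, 1807 and 1392 CPM in Context-Only mice and 806, 1279 and 621 CPM in Homecage mice, with groups that did not overlap (log2 fold change 1.03, SE 0.54, unadjusted p = 0.0715). A Penk read was found in 50.4% and 31.6% of those cells. In excitatory cells it had 147.4, 56.1, 18.6 and 22.3 CPM against 69.9, 308, 52.1 and 116.7 CPM (-1.16, SE 0.75), with 1 cell carrying 29.6% of the Homecage reads. Vip, which marks many of the other cells, had 14148, 26014, 18069 and 15858 CPM in them against 11911, 23407 and 22111 CPM.

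Whether the difference between groups was itself different in excitatory and other cells was tested in 1 model with the mouse as a block, over 16 mice of all conditions, 4 of them Context-Only and 3 Homecage. Of 19889 genes 0 passed (edgeR), the smallest adjusted p was 0.728, and 912 genes had an unadjusted p under 0.05 (4.59%). For Penk the difference, excitatory minus other, was -2.81 on the log2 scale (SE 0.68, adjusted p = 0.870). For Egr1 it was 0.89 (SE 0.40, adjusted p = 1), and for Junb 0.11 (SE 0.39).

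Expression also varied with the number that the labels give each mouse. Over 4918 genes, deviations from the group mean correlated between same-numbered Context-Only and Homecage mice at r = 0.68, 0.43, 0.30 and 0.72 for numbers 2 to 5. These r are across genes of summed libraries, a description with no test. The 12 pairs of unlike number ranged from -0.68 to 0.50, with a median of -0.22. Centring each group on its own mean pulls unlike pairs below 0 when same-numbered pairs are positive, so that median is partly built in. Context-Only 4 correlated more with Homecage 5 (0.50) than with Homecage 4 (0.30). A test of mouse number with edgeR over the 8 sums called 55 of 17703 genes (0.311%), beside 0 for the condition, and all 55 were lower in mice 4 and 5 than in mice 2 and 3. Over the sums of all 4 conditions it called 3965 of 19562 genes (20.3%), and these included all 55. In excitatory cells the same tests called 27 of 16474 genes (0.164%) and 2764 of 18686 (14.8%). In other cells they called 0 of 15243 (0%; 1937 at an unadjusted p under 0.05) and 1090 of 17314 (6.3%).

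The 6 genes of smallest p for mouse number differed by large factors. Spry2, an inhibitor of growth factor signalling (chromosome 14, 105891947 to 105896819, minus strand), had 102, 123.8, 6.34 and 7.85 CPM in Context-Only mice 2 to 5 and 146.9, 194, 12.2 and 16.1 CPM in Homecage mice 2 to 5. The mean of mice 2 and 3 was 13.3 times that of mice 4 and 5. The edgeR test was of any difference among mouse numbers (adjusted p = 0.0115), and this split of the numbers was not itself tested. Micu3, a neuronal regulator of calcium entry into mitochondria (chromosome 8, 40307458 to 40386308, plus strand), had 823, 458, 69.4 and 71.7 CPM against 963, 850, 87.01 and 88.6 CPM, a ratio of 9.77. Scn2b, a sodium channel beta subunit, had 1103, 1102, 169.4 and 140.6 CPM against 1015, 1425, 197 and 166.6 CPM, a ratio of 6.89. Lrrc8a, a subunit of the volume-regulated anion channel, Paip1, a partner of the poly(A)-binding protein, and Gbas had ratios of 14.5, 8.25 and 5.78. In all 6 the 4 mice numbered 2 and 3 lay above the 4 numbered 4 and 5. Within a number the values of the groups were not equal, with Spry2 at 6.34 against 12.2 CPM in the mice numbered 4. In Spry2, Micu3, Paip1, Lrrc8a and Gbas the Context-Only mouse was lower in 4 of 4 pairs. In Scn2b the mice numbered 2 went the other way. For the condition no gene passed with mouse number as a block (edgeR, smallest adjusted p 0.786). The labels used here do not say what a mouse number stands for, so litter, day, library preparation and sequencing cannot be told apart.

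**Figure D5:**
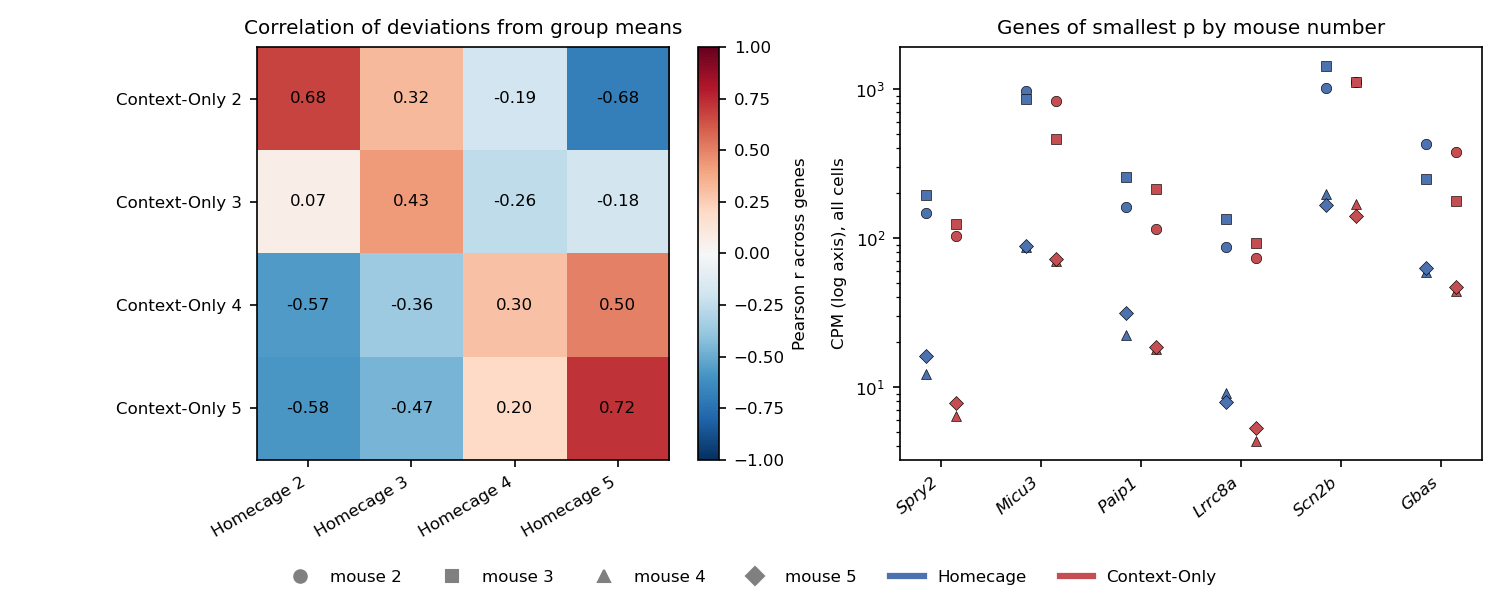
Left: correlation (r, across genes) of deviations from the group mean between each Context-Only mouse and each Homecage mouse. Right: CPM (log axis) of the 6 genes of smallest p for mouse number, by mouse; same-numbered mice correlate at 0.68, 0.43, 0.30 and 0.72, and mice 4 and 5 lie below mice 2 and 3 in both groups.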

How the data were processed

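The deposited table held raw read counts per gene for each cell, as whole numbers. Bowtie 0.12.2 and the builds mm8 and mm10 come from the submitters' processing notes, without role or order. The sources used here do not give the counting tool. Symbols were used as the table gives them, and positions are from GENCODE vM21 (GRCm38). The reporter's row was left out of library sizes and tests, leaving 23354 genes. No 2 member cells held identical counts. Raw counts were summed per mouse over all, excitatory or other cells, with at least 10 cells a sum; a second Context-Only mouse numbered 5 (150 cells) was left out because its label does not end in the group name, and added only as an alternative. Because PCR reads without molecular identifiers are not independent molecules, intervals of shares (exact binomial, 95%) cover counting error only.

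Sums of all 4 conditions (18, or 16 for other cells, where mice with fewer than 10 such cells drop out) entered 1 fit, which shares the estimate of spread: edgeR 4.0.16 (R 4.3.3) with filterByExpr, TMM scaling and the quasi-likelihood test, Benjamini-Hochberg adjusted over all genes tested, threshold 0.05. DESeq2 1.42.0 and limma 3.58.1 (voom) were alternatives, and the procedure was tested on simulated data. CPM values use TMM-scaled library sizes. Values per mouse were compared with exact two-sided permutation tests (scipy 1.17.1). Same-numbered mice deviated together (r of 0.30 to 0.72 over 4918 genes, all 4 pairs above 0.1), though Context-Only 4 correlated more with Homecage 5 (0.50). On that description the number was taken to pair mice and was fitted as a block in the alternative. The labels do not say what it marks. Remarks that a gene went one way in 4 of 4 pairs are descriptions, given without the share of all genes that did so.

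The groups, gene lists and markers were chosen with earlier results of these data known, so no list is independent support. Genes named were, per comparison, those past the threshold or, where none passed in a direction, the 4 of smallest p at a mean log2 CPM no lower than 5; up to 4 members of smallest p in all cells from each list; and Slc17a7, Neurod2, Neurod6, Gad1 and Gad2. Predicted genes were not named, and some genes that these rules pick are not reported here. Fos, Arc, Egr1, Npas4, Nr3c1, Sgk1, Per1, Vip and Sst, the values of list genes within a class, and the 6 genes of mouse number were added after values were seen. P-values describe the spread between these mice.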

Additional observations from a re-analysis of the deposited data

Results flagged for a closer look

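A sample was listed here when its distance to the nearest other mouse of its group exceeded 0.829 of the group's range, the 95% critical value of Dixon's test for 4 mice. Of 149 groups of 4 mice tested over the named genes and values, 16 met this. The rate of about 1 in 20 by chance holds for independent values with a normal spread. Here the genes share the same mice and some were chosen by p, so no excess can be read from this count.

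Homecage 4, the mouse of 17 cells, stood apart in 4 of the genes. It was highest for Nr1d2 (70.01 CPM, next 15.2), Kcnd2 (93.1 CPM, next 49.3) and Dlx6os1 (215.3 CPM, next 81.02), and lowest for Kcnn2 (20.1 CPM, next 41.5). Homecage 5 was highest for Egr1 (999.6 CPM, next 506), Nr1d1 (129.7 CPM, next 55.4), Cyp51 (80.1 CPM, next 29.8) and Hspa8 (3289 CPM, next 2634). Homecage 3 was highest for Penk (764 CPM, next 337), and Homecage 2 for Pdyn (7.33 CPM, next 0.342).

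Among Context-Only mice, mouse 2 was highest for Npas4 (45.04 CPM, next 23.3) and Rasgrf2 (46.6 CPM, next 31.1), and mouse 3 for Pigu (45.1 CPM, next 26.3) and Kdm6a (5.84 CPM, next 3.37). Mouse 5 was highest for Arc in excitatory cells (353 CPM, next 248), and mouse 4 for Gss in other cells (102 CPM, next 56.0).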

How the results depend on the processing

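The shares of 0% of genes called in all, excitatory and other cells became 0.248%, 0.308% and 0.754% with DESeq2 (35, 44 and 106 higher, 13, 13 and 21 lower), and the cause was not tested. They were 0% under each other alternative run: voom with sample weights, RLE size factors, no filter on low counts, sums of the 2 groups alone, the second Context-Only mouse 5 added, at least 50 cells a sum, the mean of per-cell CPM, cells thinned to 100000 reads, the neg gate alone (all cells) and a 4-fold gap between class sums (excitatory and other). The same held for 2 alternatives added after seeing the data, cells of 3000 or more genes, and Context-Only 2 and Homecage 4 left out. Leaving out 1 mouse gave 0% to 0% in each, and in the class interaction, with smallest adjusted p between 0.197 and 1. With mouse number as a replicate block the shares were 0%, 0% and 0% (smallest adjusted p 0.786, 0.742 and 0.988), so the pairing changed no call.

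The difference in excitatory share ran from -2.13 (without Homecage 3) to 5.43 when 1 mouse was left out, and was -1.10 without Context-Only 4, 2.47 with the 4-fold gap and 2.80 with the second mouse 5. Of 1029 alternative values of 49 genes in all cells, 1011 kept direction and call and 18 changed sign, of the values of 14 genes in excitatory cells 3 changed sign and 2 passed with DESeq2 (Nalcn -0.88, Rabgap1l -0.62), and of 300 of 15 genes in other cells 1 changed sign. Leaving out 1 mouse moved Nr4a1 between -1.23 and 0.35, Egr1 between -0.13 and 0.39, Nfkbia between -0.012 and 0.64, Nr1d2 between -1.30 and 0.17, and Fos in excitatory cells between -0.37 and 0.066. With 50 or more cells a sum Egr1 was -0.048, Nr1d2 0.16 and Npas4 in other cells 0.026. With voom Nfkbia was -0.053 and Nr1d2 0.077. Without Context-Only 2 and Homecage 4 Nfkbia was -0.15 and Nr1d2 0.25. In the neg gate alone, where 3 Context-Only and 2 Homecage mice remain, Nr4a1 was 0.21, Egr1 -5.18e-05, Pdyn -0.25, Kcnn2 0.084 and Hspa5 -0.0104. The causes were not tested. Depth per sum was not equal: Homecage 4 had 20281553 reads from 17 cells.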
